A study of Mus musculus with 3 samples.

Results

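Circular RNAs (circRNAs) of the 5 host genes Slc8a1, Hipk2, Tulp4, Atrnl1 and Cdyl were measured in plasma exosomes of mice. These hosts were taken as genes whose circRNAs are abundant in heart, brain or many tissues, and every circRNA assigned to one of them in the deposited table was included. That gave 5 of the 563 circRNAs in the table, 1 for each host. The study sequenced exosomal RNA from 3 groups of male wild type C57BL/6 mice, with 1 library for each group and no replicate: normal mice on a basic diet, model mice made diabetic by a fat-rich diet and streptozotocin, and model + EA mice, which had the same diet and injection and then electroacupuncture at the Zusanli and Pishu points. Neither the age of the mice nor how many gave plasma to each library is given in the sources used here.

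The labels of the 3 libraries contradict each other, and this bears on every comparison. The sample titles give library A1 as normal, B1 as model and C1 as model + EA. The comparison sheets of the study, which hold its own comparisons, give A1 as model, B1 as model + EA and C1 as normal. The libraries are therefore called A1, B1 and C1 below, and each comparison is given with both sets of names. The junction reads of a library are the same under either set.

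A circRNA forms by back-splicing, in which the end of an exon is joined to the start of the same exon or of an exon further upstream, so that the product has no free ends and is protected from exonucleases. The joined ends give a back-splice junction that no linear transcript of the same exon order holds, and a read across it (a junction read) counts the circle and not the mRNA. Every circRNA has 1 such junction, so junction reads do not grow with its length. In many animal genes, circle-forming exons lie next to long introns. Exosomes are vesicles of endosomal origin that carry RNA of their source cells into plasma. The circRNA of Slc8a1 is best known from heart muscle. In bulk plasma, fewer vesicles from a tissue and less circRNA in each vesicle cannot be told apart.

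The junctions of the 5 circRNAs are shown because they are what the counted reads cross. Each line gives the last bases of the circle in lower case, followed by its first bases in capitals, read 5′ to 3′ from GENCODE M21 transcripts on GRCm38, the assembly that mm10 names.
Slc8a1, chr17:81647809-81649638, minus strand: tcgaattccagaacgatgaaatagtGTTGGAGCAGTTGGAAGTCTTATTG
Hipk2, chr6:38818230-38819313, minus strand: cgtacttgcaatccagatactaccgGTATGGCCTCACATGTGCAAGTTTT
Tulp4, chr17:6137211-6139156, plus strand: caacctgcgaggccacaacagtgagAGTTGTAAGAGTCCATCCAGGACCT
Atrnl1, chr19:57629085-57657238, plus strand: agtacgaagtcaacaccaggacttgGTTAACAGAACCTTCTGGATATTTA
Cdyl, chr13:35815909-35816575, plus strand: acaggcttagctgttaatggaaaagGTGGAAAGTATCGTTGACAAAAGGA

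The libraries differed in how their reads were spread. Total junction reads were 4125 in A1, 4372 in B1 and 2913 in C1, over 157, 140 and 320 detected circRNAs, and the median detected circRNA had 25, 33.5 and 7 reads. A library with 0 reads of a circRNA could still hold up to 3, or 0.0727% of the reads of A1, 0.0686% of B1 and 0.103% of C1. Few circRNAs were shared: 135 of the 157 in A1 (86.0%), 105 of the 140 in B1 (75.0%) and 280 of the 320 in C1 (87.5%) were found in that library alone, and 11 were found in all 3 libraries. Intervals below are exact (Clopper-Pearson) 95% intervals, which cover counting error only and hold no spread between mice.

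None of the 5 circRNAs was detected in all 3 libraries, where only 11 of all 563 were. The circRNAs of Slc8a1 and Hipk2 were found in A1 alone and above the median of that library. The circRNA of Tulp4 was found in B1 and C1 and not in A1. The circRNAs of Atrnl1 and Cdyl were found in C1 alone, with a few reads each. Together they held 64 reads in A1, or 1.55% (1.20 to 1.98%) of its junction reads, against 11 reads in B1, or 0.252% (0.126 to 0.450%), and 14 reads in C1, or 0.481% (0.263 to 0.805%). The interval of A1 lay above those of B1 and C1, which overlapped each other. By number, the detected members were 1.27% of the circRNAs detected in A1, 0.714% in B1 and 0.938% in C1. The share of reads thus also depends on how many of the 5 were detected.

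**Figure D1:**
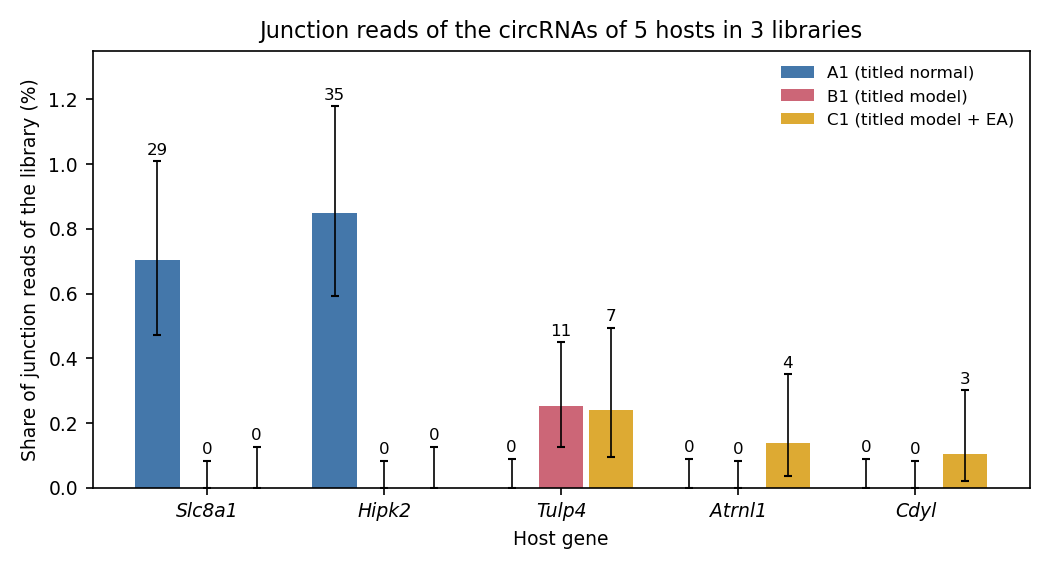
Share of the junction reads of each library, in percent, held by the circRNA of each host (bars), with exact 95% intervals (lines) and the number of reads above each. Slc8a1 (29 reads) and Hipk2 (35 reads) appear in A1 alone, Tulp4 in B1 (11 reads) and C1 (7 reads), and Atrnl1 (4 reads) and Cdyl (3 reads) in C1 alone.

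Slc8a1 encodes the sodium-calcium exchanger of the plasma membrane, which moves calcium out of heart muscle cells after each contraction. Its circRNA, mmu_circ_0000823 in circBase, had 29 junction reads in A1, 0 in B1 and 0 in C1. The reads of A1 were 0.703% (0.471 to 1.01%) of that library, which ranked the circRNA at 60 of 157, with 90 circRNAs below it. B1 was at least 11.9-fold lower than A1 when its 0 reads were set to 3, and C1 was at least 12.3-fold lower. Such bounds carry no counting error of the higher library. The interval from the split of the reads put the difference at 9.09-fold or more for B1 and at 9.40-fold or more for C1. The bounds depended on the scaling, more so for C1. That for C1 was 6.83-fold with total junction reads and 3.98-fold with TMM factors, and that for B1 was 10.25-fold and 8.17-fold. With TMM factors the intervals began at 6.23-fold for B1 and 3.04-fold for C1.

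Hipk2 encodes a nuclear serine/threonine kinase that takes part in the response to DNA damage. Its circRNA, mmu_circ_0001468, had 35 junction reads in A1, 0 in B1 and 0 in C1. With 0.848% (0.592 to 1.18%) of the reads of A1 it ranked at 38 of 157 and was the most abundant of the 5. B1 was at least 14.4-fold lower than A1 and C1 at least 14.9-fold lower, with intervals that began at 11.1-fold and 11.5-fold. The bound for C1 was 8.24-fold with total junction reads and 4.81-fold with TMM factors, and that for B1 was 12.37-fold and 9.86-fold. With TMM factors the intervals began at 7.61-fold for B1 and 3.71-fold for C1. The levels of Hipk2 and Slc8a1 in A1 could not be separated, since their intervals overlapped.

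Tulp4 encodes a member of the tubby-like protein family. Its circRNA, mmu_circ_0000723, had 0 junction reads in A1, 11 in B1 and 7 in C1, and was the only one of the 5 found in more than 1 library. The reads were 0.252% (0.126 to 0.450%) of B1, at rank 123 of 140, and 0.240% (0.0967 to 0.494%) of C1, at rank 160 of 320. It thus stood low in B1 and at the median of C1, although the shares of both libraries were close. B1 was at least 2.98-fold higher than A1, with an interval that began at 2.04-fold, and C1 was at least 1.83-fold higher, with an interval that began at 1.13-fold. With TMM factors these bounds rose to 4.34-fold and 5.67-fold, and the intervals began at 2.97-fold and 3.50-fold. The ratio of C1 to B1 was 0.615 (0.202 to 1.74) with the scaling of the authors and 1.31 (0.429 to 3.69) with TMM factors, so its direction was not resolved.

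Atrnl1 encodes a single-pass membrane protein related to attractin. Its circRNA, mmu_circ_0007921, had 0 reads in A1, 0 in B1 and 4 in C1, which was 0.137% (0.0374 to 0.351%) of C1. The interval of the ratio of C1 reached below 1, to 0.638 against B1 and 0.518 against A1, so no bound is given. Cdyl encodes a chromodomain protein that acts as a transcriptional corepressor. Its circRNA, mmu_circ_0000451, had 0 reads in A1, 0 in B1 and 3 in C1, or 0.103% (0.0212 to 0.301%) of C1. No fold is given for Cdyl, since its reads did not exceed the 3 that a count of 0 allows, and the interval of its ratio began at 0.399 against B1 and at 0.324 against A1. These circRNAs ranked at 232 and 256 of 320 in C1, and with the scaling of the authors a difference from the other libraries was not detectable at this depth. With TMM factors the interval of Atrnl1 began at 1.355 against B1 and 1.603 against A1, and that of Cdyl at 0.848 and 1.003. TMM factors rest on the few circRNAs that a pair of libraries shared, and the intervals do not hold the uncertainty of these factors.

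**Figure D2:**
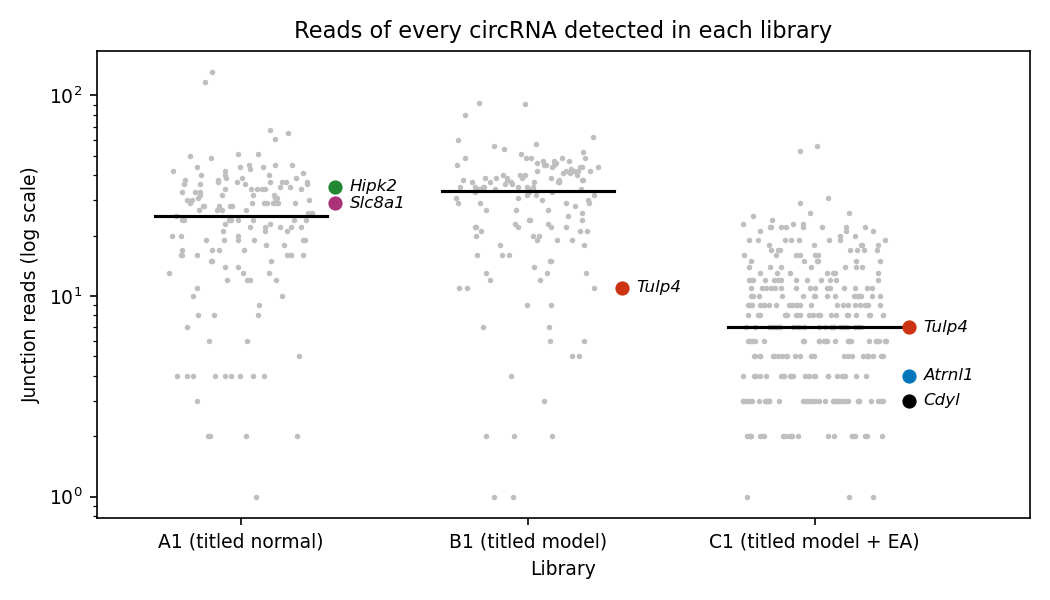
Junction reads on a log scale of every circRNA detected in each library (grey points), with the median (black line) and the circRNAs of the 5 hosts beside them (coloured points). Slc8a1 and Hipk2 lie above the median of 25 reads in A1, Tulp4 lies below the median of 33.5 in B1 and at the median of 7 in C1, and Atrnl1 and Cdyl lie below it in C1.

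The comparison of B1 with A1 is model against normal by the titles and model + EA against model by the comparison sheets. A circRNA was called at a 2-fold difference of scaled reads, with 0.1 reads in place of 0 as the authors did, so that every circRNA found in only 1 library of a pair was called. Of the 5 circRNAs, 1 (Tulp4) was called higher in B1 and 2 (Slc8a1 and Hipk2) lower, against 22.6% and 25.9% of all 563. The same 3 were called when the exact interval of the ratio had to lie beyond 2-fold, against 20.4% higher and 22.6% lower of all 563. Tulp4 passed that rule narrowly. Atrnl1 and Cdyl had 0 reads in both libraries.

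The comparison of C1 with B1 is model + EA against model by the titles and normal against model + EA by the comparison sheets. Atrnl1 and Cdyl were called higher in C1 at 2-fold, where 51.7% of all circRNAs were called higher, and none of the 5 was called lower, where 23.1% were. No circRNA of the 5 was called when the interval had to lie beyond 2-fold, against 17.9% higher and 20.1% lower of all 563. Slc8a1 and Hipk2 had 0 reads in both libraries, and Tulp4 was found in both.

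The comparison of C1 with A1 is model + EA against normal by the titles and normal against model by the comparison sheets. All 5 circRNAs were called at 2-fold, 3 higher in C1 (Tulp4, Atrnl1 and Cdyl) and 2 lower (Slc8a1 and Hipk2), against 53.6% higher and 27.0% lower of all circRNAs. With the interval beyond 2-fold, only Slc8a1 and Hipk2 were called, both lower in C1, against 13.0% higher and 23.1% lower of all 563. Tulp4 would also pass that rule with total junction reads or TMM factors, where its interval began at 2.04 or 3.50. Each library enters 2 of the 3 comparisons, so the low values of Slc8a1 and Hipk2 in B1 and C1 are both read against the same reads of A1.

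The 2 steps of the study, model against normal and model + EA against model, read differently for these hosts under the 2 sets of names. By the comparison sheets, Slc8a1 and Hipk2 were called higher in the model and lower again with EA, as were 25.6% of all 563 circRNAs, and Tulp4 was called lower in the model and higher with EA, as were 3.73%. By the titles none of the 5 was called one way and then the other, against 21.5% higher then lower and 1.60% lower then higher of all 563. These shares stand for 144 and 21 circRNAs by the comparison sheets, and for 121 and 9 by the titles. The paper states 144 and 21, so its own counts used the names of the sheets. Which names are right for the mice is not settled by this. Both steps share the model library, so a high or low value there alone gives such a pattern. These counts were added after the data were seen.

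Circles with the read pattern of each host were common. The 134 other circRNAs found in A1 alone included Trip12 and Ddx46 with the same 29 reads as Slc8a1, and 6 circRNAs tied with it in all. The nearest to Hipk2 were Mecr (35 reads in A1) and Mast4 (36 reads). Among the 20 other circRNAs found in B1 and C1 and not in A1, the nearest to Tulp4 was Plcl2 (11 and 9 reads), at a distance of 0.32 in log2(scaled reads + 1) over the 3 libraries. In C1 alone, 19 circRNAs tied with Atrnl1 at 4 reads, among them Dennd1b and Acbd3, and 34 tied with Cdyl at 3 reads, among them Nek7 and Mtmr3.

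The exon make-up of the circRNAs is given as a description, with no test. Hosts were matched by symbol, so circRNAs whose deposited host symbol is not that of GENCODE, such as Epb4.1, were not placed. Both ends matched exon edges of 1 host transcript in 435 of the 563 circRNAs (77.3%). These included Slc8a1, Hipk2, Cdyl and Atrnl1, and the first 3 were made of a single exon, against 36 of the 435 (8.28%). Slc8a1 and Hipk2 were exon 2 alone, as were 20 of the 435 (4.60%), and Atrnl1 also began with exon 2, as did 163 (37.5%). The exons of Slc8a1, Hipk2 and Cdyl were long. Among 175649 internal exons of protein-coding transcripts of GENCODE, with a median of 124 nt, 0.244% were as long as that of Slc8a1. The shares were 0.647% for Hipk2 and 1.53% for Cdyl.

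The circRNA of Slc8a1 was exon 2 of the 11 exons of ENSMUST00000163123.2 and 1830 nt long, and 7 of the 461 exonic circRNAs were as long. It lay between introns of 88670 nt upstream and 202215 nt downstream, where 12 of 434 and 4 of 435 circRNAs with such an intron had one as long. The circRNA of Hipk2 was exon 2 of the 15 exons of ENSMUST00000161779.7, with 1084 nt and introns of 56485 and 70232 nt. The circRNA of Cdyl was exon 5 of the 10 exons of ENSMUST00000075220.13, with 667 nt and introns of 25733 and 40087 nt. All 3 circles thus had both introns longer than the medians of 8881 nt upstream and 6092 nt downstream.

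The circRNA of Atrnl1 was the exception among the exonic circles. It joined exon 9 back to exon 2 of the 29 exons of ENSMUST00000077282.6, and its 8 exons added up to 1239 nt. At least 8 exons were held by 20 of the 435 circRNAs (4.60%). Its introns, of 17441 and 15880 nt, were also longer than the medians, though 139 of 434 and 105 of 435 were as long.

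**Figure D3:**
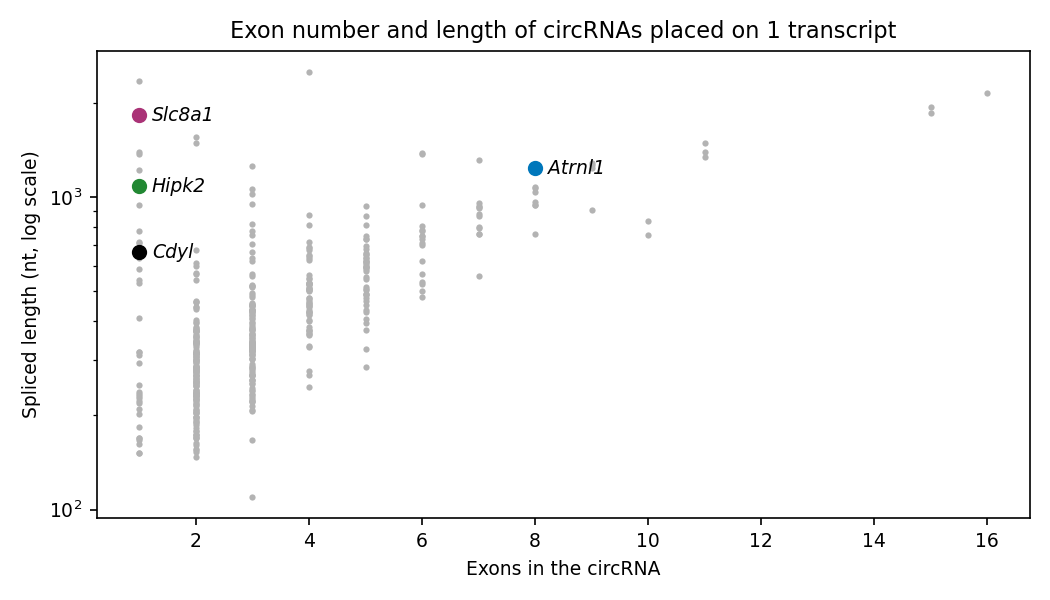
Number of exons against spliced length in nt (log scale) for the 435 circRNAs placed on 1 transcript (grey points), with Slc8a1, Hipk2, Cdyl and Atrnl1 in colour. Slc8a1 (1830 nt), Hipk2 (1084 nt) and Cdyl (667 nt) lie above the median of 315.5 nt of single-exon circRNAs, and Atrnl1 reaches 1239 nt with 8 exons. Tulp4 has no point because its ends lie on different transcripts.

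**Figure D4:**
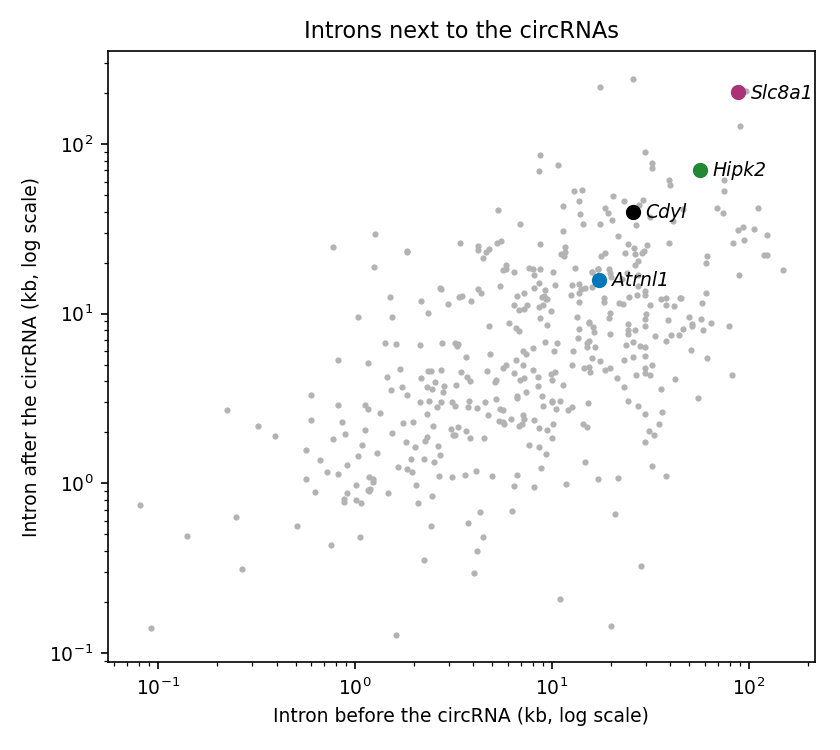
Length in kb of the intron before and the intron after each circRNA placed on 1 transcript (grey points, both axes log), with Slc8a1, Hipk2, Cdyl and Atrnl1 in colour. Slc8a1 and Hipk2 lie in the upper right corner, where both introns are long.

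The circRNA of Tulp4 was typed as intronic in the deposited table, 1 of 32 such circRNAs, with a predicted length of 1946 nt that is the whole interval. Against GENCODE M21 its ends were not inside an intron. Its start was the start of exon 3 of the noncoding transcript ENSMUST00000149838.7, an exon of 1582 nt, and its end was the end of exon 1 of the protein-coding transcript ENSMUST00000039655.2, an exon of 1009 nt. The exons overlapped by 645 nt, so every base of the circle was exonic in 1 or the other transcript. Only 2 of the 32 intronic circRNAs, those of Tulp4 and Zeb1, had both ends at exon edges of any transcripts of the host, and Zeb1 was named after its values were seen. The introns next to these ends were 14866 nt upstream and 37672 nt downstream. Whether the circle keeps the whole interval cannot be read from junction counts.

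All 5 circRNAs held coding sequence of their hosts. The circle of Slc8a1 held the start codon at base 32, and from there its 1799 bases (98.3%) encoded residues 1 to 600 of the 970 of the exchanger. Its length is a whole number of codons, and the reading frame that opens at this start codon met no stop around the circle. Of 425 circRNAs with coding sequence, 115 (27.1%) had a frame with no stop, and 10 of them (2.35% of the 425) also held the start codon. The circle of Atrnl1, which holds residues 97 to 510 of 1378, also had a frame with no stop but no annotated start codon. In the other 3 the frame of the host ended soon after the junction, with a stop at base 59 for Hipk2 (residues 7 to 368 of 1196), base 15 for Cdyl (residues 58 to 280 of 593) and base 34 for Tulp4. The Tulp4 circle held its start codon at base 1695 and residues 1 to 84 of 1547, and 12.9% of its bases were coding. These are properties of the sequence, and translation was not measured.

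The GC content was 43.5% for Tulp4, 44.3% for Atrnl1, 46.9% for Slc8a1, 50.8% for Hipk2 and 56.4% for Cdyl, around a median of 45.7% over 436 circRNAs with a sequence. Cdyl was near the top, with 22 of 436 as high.

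The study measured the circRNAs of Hipk2 and Tulp4 by qRT-PCR, and the primers show what such an assay reads. They are printed 5′ to 3′ in capitals as designed.
Hipk2 forward: CCGTACCGAGTGAAGGTCA
Hipk2 reverse: TTGAAGGGTGTGAGGGGA
Tulp4 forward: CCTCGAGTCACTGTCGCA
Tulp4 reverse: TGGAAGGTCCTGGATGGA
In the Hipk2 circle the forward primer began at base 996 of 1084 and the reverse primer matched bases 27 to 44, which gives a product of 133 nt across the junction. In the Tulp4 circle the forward primer began at base 1873 of 1946 and the reverse primer matched bases 12 to 29, for a product of 103 nt across the junction. In linear transcripts the Hipk2 primers had matches for both in 5 transcripts but faced each other in 0. No linear Tulp4 transcript held both primers.

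Target sites of miRNAs were searched because circRNAs are often described as binding them. Of 14 miRNAs of heart, muscle, brain, liver, islet and blood or of the network of the study, 9 were matched in the RefSeq table (GRCm38.p6). The others were miR-1a-3p, miR-133a-3p, miR-124-3p, miR-122-5p and miR-375-3p. Of the 9, miR-208a-3p of heart, miR-9-5p and miR-7a-5p of brain, and miR-223-3p, miR-451a and miR-16-5p of blood had no match in any circle. The 3 that had a match in a circle are printed with the seed, bases 2 to 8, in capitals.
miR-499-5p: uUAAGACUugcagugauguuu
miR-128-3p: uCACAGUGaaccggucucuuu
miR-7092-3p: uGUUCUUUguuuuguuugccuuag
The 7-base complements of these seeds, AGTCTTA for miR-499-5p, CACTGTG for miR-128-3p and AAAGAAC for miR-7092-3p, were searched on the strand of the circle, the junction included. Slc8a1 held AGTCTTA at base 16 and CACTGTG at base 1336. Windows of the same length from 15116 mRNAs held these in 8.11% and 26.6% of cases. The first of these sites, for a miRNA of heart and slow muscle, is shown with its surroundings, and binding was not tested.
Slc8a1 site: agcagttggaAGTCTTAttgtacaaca
Hipk2 held CACTGTG at base 335 (16.8% of windows), Tulp4 held AAAGAAC at base 1635 (19.8%) and Atrnl1 held AGTCTTA at base 570 (5.17%). The Cdyl circle held none of the 9. A window as long as the circle held sites for a mean of 1.33 of the 9 miRNAs for Slc8a1, where the circle held 2, and for a mean of 0.837 for Hipk2, 1.40 for Tulp4, 0.947 for Atrnl1 and 0.534 for Cdyl.

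All 5 circRNAs carried an identifier of circBase, a database of circRNAs from earlier studies, against 122 of the 563 (21.7%). The hosts were chosen for circRNAs already known, so the choice alone made such an identifier likely. By library, 26.1% of the circRNAs of A1, 26.4% of B1 and 20.6% of C1 had one. Each of the 5 hosts gave 1 circRNA, as did 387 of the 459 hosts in the table. None of 11 paralogs of the 5 hosts had a circRNA in the table, among them Slc8a2, Cdyl2, Atrn, Tulp3, Hipk1 and Hipk3.

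The tissue named for these hosts was not checked against other circRNAs, because 0 of 14 other hosts typical of heart and muscle and 0 of 14 typical of brain had a circRNA in the table. The lists of blood cells were short, and their counts do not show how many hosts of blood cells the table holds. Of 13 listed erythroid hosts 4 had a circRNA (Hba-a1, Hbb-bs, Hbb-bt and Ank1), with 6 reads in A1, 50 in B1 and 7 in C1. Of the 50 reads in B1, 43 were from the circRNA of Hbb-bs, which had 0 reads in A1 and C1. Of 10 lymphoid hosts only Ikzf1 did, with 61, 0 and 6 reads, and 0 of 10 platelet and 0 of 8 myeloid hosts had any. The 61 reads of Ikzf1 in A1 were all from 1 of its 2 circRNAs, and the other was found in C1 alone. Of all 563 circRNAs, 135 were found in A1 alone, those of Slc8a1 and Hipk2 among them. The part of blood cell RNA in the levels of Slc8a1 and Hipk2 was not tested.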

How the data were processed

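Junction reads of circRNAs from plasma exosomes were analysed in 3 libraries, 1 per group, with totals of 2913 to 4372. Exosomal RNA was depleted of rRNA and made into stranded libraries. The authors trimmed reads with cutadapt 1.9.3 and aligned them with STAR 2.5.1b to mm10, per their processing notes, and found circRNAs with DCC. The table deposited by the authors holds, for each library, the raw count of junction reads and a normalized log2 value, with position, host, type and predicted length. Each log2 value deposited by the authors was the log2 of the count times a library factor (1.28 for A1, 1.03 for B1 and 1 for C1), with 0.1 reads in place of 0.

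Counts were scaled by these factors. With 1 library per group no test across samples and no p-value was possible. A circRNA was called in each pair of libraries at 2-fold, the fold of the study, which required it for model + EA against both other groups, or where both limits of the exact 95% interval lay past that fold. A library at 0 was set to 3 reads for a bound, and no fold was given where both libraries had 3 reads or fewer. Groups were taken from the sample titles, and the groups of the comparison sheets were an alternative. CircRNAs were placed on transcripts of the host symbol in GENCODE M21. The interval and the calls were tested on simulated counts. Other alternatives changed the value in place of 0, the scaling, the least reads, the fold and the set of circRNAs. Tools were Python 3.11.15, scipy 1.17.1 and, for TMM factors, edgeR 4.0.16.

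The named circRNAs were the 5 members, paralogs and other hosts on written lists, and the 2 circRNAs nearest to each member in log2(scaled reads + 1), with ties in table order, of which 1 is not reported here. Members and lists were chosen with earlier results of these data known. Splice site bases were not analysed here.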

Additional observations from a re-analysis of the deposited data

How the results depend on the processing

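The main limits are the single library of each group, so that no spread between mice is known, the contradictory group labels, and the few reads of Atrnl1 and Cdyl. No paired analysis was possible because each group has 1 library. Slc8a1 and Hipk2 kept their direction and call in all 16 recomputed values each that left the groups as titled. With 29 and 35 reads against 0, these settings could hardly give another outcome. The values came from 2 comparisons that share the reads of A1, and they do not bear on the spread between mice. With the groups of the comparison sheets, 5 circRNAs instead of 3 were called in model against normal, 3 (1 higher, 2 lower) instead of 2 (both higher) in model + EA against model and 2 instead of 5 in model + EA against normal, and 3 instead of 0 were called in opposite directions in the first 2 of these. The log2 ratio (0.1 reads in place of 0) then turned in model against normal for Slc8a1 from -8.48 to 8.53, for Hipk2 from -8.75 to 8.80 and for Tulp4 from 6.48 to -5.78. It turned in model + EA against model for Tulp4 from -0.70 to 6.48, and in model + EA against normal for Atrnl1 from 4.97 to -5.27 and for Cdyl from 4.56 to -4.86. These turns follow from the exchange of the libraries. With 3 reads in place of 0, with a minimum of 10 reads in the higher one, or with the interval beyond 2-fold, 0 instead of 2 were called in C1 against B1 and 2 instead of 5 in C1 against A1. With 3 reads in place of 0 the log2 ratio of Cdyl became -0.0495 against B1 and -0.35 against A1, from its 3 reads being set against 3. TMM factors shifted the log2 ratio of every circRNA by 0.54 in B1 against A1, 1.09 in C1 against B1 and 1.63 in C1 against A1. They use only circRNAs with reads in both libraries of a pair, which were few. Besides the 11 circRNAs in all 3 libraries, 3 were in A1 and B1, 8 in A1 and C1 and 21 in B1 and C1. Over circRNAs with an identifier alone, the 5 held 2.15% of the reads of A1 instead of 1.55%, 0.364% of B1 instead of 0.252% and 0.785% of C1 instead of 0.481%.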

Other observations

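Among 34 other hosts whose circRNAs are known from many tissues, 11 had a circRNA in the table under the symbol listed, 19 circRNAs in all. Epb41 is also among the 34, but the table holds its circRNAs under the symbol Epb4.1, so they are not counted here. The 19 circRNAs held 246 reads in A1 (5.96% of the library), 377 in B1 (8.62%) and 56 in C1 (1.92%). By number, they were 9 of the 157 circRNAs detected in A1, 10 of the 140 in B1 and 5 of the 320 in C1. Their share of reads thus also depends on how many of them were detected. Strn3, a striatin that is a subunit of a phosphatase complex, gave 7 of them, and its circRNA mmu_circ_0000372 was found in all 3 libraries, with 21, 46 and 19 reads. The circRNA mmu_circ_0001311 of Ankib1, which encodes a protein with ankyrin repeats, was also found in all 3, with 36, 54 and 15 reads. The other circRNAs counted here were found in fewer libraries. None of the 5 circRNAs described above was found in all 3, but only 11 of all 563 circRNAs were.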
